A study of Saccharomyces cerevisiae with 159 samples.

Results

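The genes described here are 10 cytosolic chaperone genes of budding yeast, Saccharomyces cerevisiae, taken by their systematic names from the 6685 nuclear open reading frames (ORFs) of the expression table. They are the cytosolic Hsp70 genes SSA1 (YAL005C), SSA2 (YLL024C), SSA3 (YBL075C) and SSA4 (YER103W), the ribosome-associated Hsp70 genes SSB1 (YDL229W) and SSB2 (YNL209W), the Hsp90 genes HSC82 (YMR186W) and HSP82 (YPL240C), the J-domain co-chaperone SIS1 (YNL007C) and the disaggregase HSP104 (YLL026W). All 10 passed the filter on low values in each experiment with replicates. Below, SSA1, SSA3, SSA4, HSP82, HSP104 and SIS1 are grouped as 6 stress-inducible genes, and SSA2, SSB1, SSB2 and HSC82 as 4 growth-linked genes.

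RNA was measured in W303 strains in 8 experiments, with 23 to 47 libraries in 4 of them and 8 to 12 in the other 4. Cells with the temperature-sensitive alleles cdc28-13 (arrest in G1), cdc20-1 (metaphase) or cdc15-2 (anaphase), and WT cells, were moved from 25 °C to 37 °C in YEPD. The G1 experiment set cdc28-13 (A39000, marked with URA3) against WT (A2587, MATa, a W303 strain with the alleles can1-100, ade2-1, trp1-1, ura3, leu2-3 and his3-11,15), with 3 libraries per strain at 2, 8 and 9 h, and 1 cdc28-13 library at 4 h and at 6 h. The metaphase (cdc20-1, A937, MATalpha) and anaphase (cdc15-2, A2596, MATa) experiments and a pair of cdc28-13 strains, prototrophic and auxotrophic, had 1 library per strain and time. The prototroph (A41270) carried ADE2, URA3, TRP1, HIS3 and a stress reporter, 4xSTRE-GFP with LEU2, and the auxotroph (A17896) ADE2 alone, and both were first synchronised with alpha factor. At 30 °C, bar1 deletion cells (A2589, MATa) received 5 µg/mL alpha factor, with 2 µg/mL added again later, or DMSO. Also at 30 °C, a haploid strain (A2587) and a strain labelled diploid (A33728, MATa/alpha) were grown to stationary phase over 24 h or given 5 nM rapamycin for 5 h, with 2 libraries per strain and time except 1 haploid library at 4 h of the growth course. The labels give that rapamycin concentration for both strains, but the study's supplement describes a lower one for the diploid, so in rapamycin strain and dose cannot be told apart. In the last experiment WT, cdc28-13, cdc20-1 and cdc15-2 cells at 37 °C were compared with and without AID-BCY1. That construct puts the PKA inhibitor Bcy1, tagged for auxin-induced degradation, under the RFA1 promoter, and the same strains (A40439, A40444, A40499 and A40501) express the plant receptor osTIR from the TEF1 promoter. The parents carry neither construct, and 500 µM auxin went to both kinds of strain at 2 and 4 h. YEPD in this experiment was supplemented with acetic acid. The osTIR construct adds LEU2 to the AID-BCY1 strains, while the parents are leu2. The cdc15-2 parent (A2596) is listed with ade1, and A40501 instead with ade2-1, his3-11,15 and can1-100. Bcy1 loss and these markers cannot be told apart in those pairs.

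Several labels went against the data. STE2, the alpha factor receptor of a cells, is known to be shut off in a/alpha diploids, but in the rapamycin libraries its log2 level was 7.35 to 8.87 in the diploid-labelled strain and 7.48 to 8.78 in the haploid, so this strain is called "diploid-labelled" throughout. In the AID-BCY1 experiment the WT, WT AID-BCY1 and cdc15-2 AID-BCY1 strains are labelled MATa but had high STE3, the a-factor receptor of alpha cells (7.49 to 7.82, 7.30 to 7.79 and 6.66 to 7.92 on the log2 scale). The mating-type pattern therefore differed between AID-BCY1 strain and parent for cdc20-1 and cdc15-2, and matched for WT and cdc28-13. It also differed from WT in the cdc28-13 and cdc15-2 parents, in cdc28-13 AID-BCY1 and cdc20-1 AID-BCY1 cells, and in cdc20-1 of the metaphase experiment. Its part in the results was not tested. BCY1 mRNA was 6.73 to 7.42 in WT AID-BCY1 cells and 6.92 to 7.93 in WT parents, and at most 7.61 in the arrested AID-BCY1 strains against at least 7.79 in their parents. Since auxin acts on the protein, these levels do not check the depletion.

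Levels are TPM (a share of RNA adjusted for transcript length) rescaled so that 6678 ORFs, all but 7 that lie in the ribosomal DNA, sum to 1000000 in each library. Differences are on the log2(TPM + 1) scale, which understates changes of low genes, with the limma standard error (SE) and an adjusted p (Benjamini-Hochberg over all genes tested, two-sided), and a gene is called at an adjusted p under 0.05. TPM holds no read counts, so the depth behind these values is unknown. In bulk RNA, fewer cells that express a gene and less of its RNA per cell cannot be told apart. The labels do not say whether replicates were separate cultures, so the p-values measure the spread between these libraries, which may be technical.

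Hsp70 proteins bind exposed hydrophobic stretches of other proteins in a cycle of ATP binding and hydrolysis. J-domain proteins such as Sis1 bring them clients and stimulate the hydrolysis. The Ssb proteins sit at the ribosome and receive emerging nascent chains, and Hsp90 completes the folding of a narrower set of clients that includes many kinases. Hsp104 is a hexameric ring that pulls proteins out of aggregates together with Hsp70 and a J-domain protein, and is known for its role in surviving severe heat. The cytosolic SSA and Hsp90 jobs are held in yeast by paralogs, some made mainly during growth and others mainly under stress. Hsf1, which binds heat shock elements, and Msn2 and Msn4, which bind stress response elements and are held back by PKA and TORC1 signalling, are the transcription factors known to induce the stress forms, while SSB1 and SSB2 are known to be regulated along with ribosomal protein genes.

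Near-identical coding sequences limit how well reads can be split between paralogs, so the coding regions were compared in the sacCer3 reference, which is not W303. SSA1 and SSA2 were 96.9% identical, with a longest identical run of 383 bases, and 57.9% of all 50-base windows of SSA1 occurred unchanged in SSA2. SSB1 and SSB2 were 97.6% identical, HSP82 and HSC82 92.5%, and SSA3 and SSA4 78.2%, with no shared 50-base window in that last pair. A stretch of coding bases 1661 to 1720 of SSA1 (sacCer3 chrI:139712-139771, minus strand) and SSA2 (chrXII:95766-95825, minus strand) shows the kind of place where reads can tell the pair apart, with the 9 differing bases in capitals.
SSA1: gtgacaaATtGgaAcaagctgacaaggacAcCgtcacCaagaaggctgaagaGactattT
SSA2: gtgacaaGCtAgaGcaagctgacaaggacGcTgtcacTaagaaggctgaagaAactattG
The split of SSA1 from SSA2, SSB1 from SSB2 and HSP82 from HSC82 is uncertain for this reason, and tests of the 3 sums are given beside the split values.

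The promoters were searched on both strands, over 500 bases upstream of the start codon, for a heat shock element (TTCNNGAANNTTC or its reverse complement GAANNTTCNNGAA) and a stress response element (AGGGG or CCCCT). The heat shock element letters occurred in SSA1, SSA2, SIS1 and HSP104, 4 of the 10 genes, and in 1.48% of 6000 genes. The stress response element letters occurred in SSA1 with 2 matches, SSA4 with 3, HSP82 with 2 and HSP104 with 3, again 4 of 10, and in 34.1% of all genes. The windows from 400 to 151 bases upstream of 5 genes follow, each with a match or a large change described below. The windows of SIS1 and HSP82, which also hold matches, are not printed. The SSA4 matches at 467 to 463 and 432 to 428 bases upstream lie outside its printed window. Capitals mark either motif, and adjoining or overlapping heat shock matches run together as 1 block. The windows lie at chrI:141582-141831 (SSA1, minus strand), chrXII:97636-97885 (SSA2, minus), chrII:86599-86848 (SSA3, minus), chrV:364189-364438 (SSA4, plus) and chrXII:88223-88472 (HSP104, plus).
SSA1: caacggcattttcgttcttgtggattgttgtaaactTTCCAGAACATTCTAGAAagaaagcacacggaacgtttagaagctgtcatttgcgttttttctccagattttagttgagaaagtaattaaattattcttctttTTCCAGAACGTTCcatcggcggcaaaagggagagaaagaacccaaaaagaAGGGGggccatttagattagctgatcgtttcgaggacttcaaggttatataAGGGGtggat
SSA2: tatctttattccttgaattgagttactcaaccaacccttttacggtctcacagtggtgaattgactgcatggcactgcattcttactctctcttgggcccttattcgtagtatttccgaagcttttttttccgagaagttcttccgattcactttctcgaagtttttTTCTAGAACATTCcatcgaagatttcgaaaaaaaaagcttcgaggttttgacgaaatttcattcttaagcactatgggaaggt
SSA3: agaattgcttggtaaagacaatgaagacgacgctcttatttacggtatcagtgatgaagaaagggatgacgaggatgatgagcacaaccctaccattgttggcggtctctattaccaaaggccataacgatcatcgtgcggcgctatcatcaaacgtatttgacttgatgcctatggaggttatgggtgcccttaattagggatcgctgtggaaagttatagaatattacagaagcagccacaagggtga
SSA4: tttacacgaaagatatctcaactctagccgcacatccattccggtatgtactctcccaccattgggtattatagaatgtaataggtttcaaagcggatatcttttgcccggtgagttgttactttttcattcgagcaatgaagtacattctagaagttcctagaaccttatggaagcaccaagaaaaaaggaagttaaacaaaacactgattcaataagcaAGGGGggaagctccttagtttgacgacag
HSP104: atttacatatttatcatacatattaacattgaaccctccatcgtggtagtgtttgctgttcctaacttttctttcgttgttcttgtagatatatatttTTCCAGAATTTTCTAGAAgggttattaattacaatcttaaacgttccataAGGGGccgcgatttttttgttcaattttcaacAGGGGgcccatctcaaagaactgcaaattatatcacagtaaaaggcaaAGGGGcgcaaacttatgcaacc
SSA3 had no match to either motif in its 500 bases, and neither did SSB1, SSB2 or HSC82. In SIS1 the heat shock matches formed a single block. The inducible SSA4 and HSP82 had no heat shock match either. A match is a description of letters and not of a bound site. Only these exact letters and spacings were searched, so a missing match does not show that an element is missing.

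Over all libraries of the series the growth-linked genes were the most abundant. The median level was 1943 TPM for SSA2, 1514 for SSB1, 1408 for HSC82 and 1301 for SSB2, followed by 1156 for SSA1, 562 for HSP82, 307 for HSP104, 279 for SIS1, 53.2 for SSA4 and 29.6 for SSA3. HSC82 was the steadiest, with a highest library 4.52 times the lowest. That ratio was 110 for HSP104, 46.8 for HSP82 and 31.3 for SSB1, and SSA3 and SSA4 were each listed at 0 in 1 library. Together the 10 genes made up 0.426 to 2.20% of the rescaled ORF signal (median 0.895%).

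The G1 arrest asked how expression changed as cdc28-13 cells stayed blocked in G1 while WT cells went on cycling at 37 °C. By 9 h the stress forms of Hsp70 held most of the cdc28-13 SSA mRNA. SSA3, SSA4, HSP104, HSP82, SIS1 and SSA1 were called higher, SSA2, SSB1 and SSB2 lower, and HSC82 was not called. Of all 6263 genes tested, 17.1% were called higher and 19.1% lower, with a median difference of -0.12, and the median was 3.07 for the 6 inducible and -1.41 for the 4 growth-linked genes. Libraries of this experiment differed in composition: the non-rDNA ORFs held 1.79 to 2.08% of the deposited TPM in cdc28-13 at 8 and 9 h and 4.78 to 5.03% in WT. The part of that difference in the results was tested only by other scalings. With the deposited scaling all 10 members were called, and SSA1 turned to a difference of -0.53. Of all genes called at 9 h 47.2% were higher, but 21.1% with all ORFs in the total and 13.6% on the deposited scale.

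**Figure D1:**
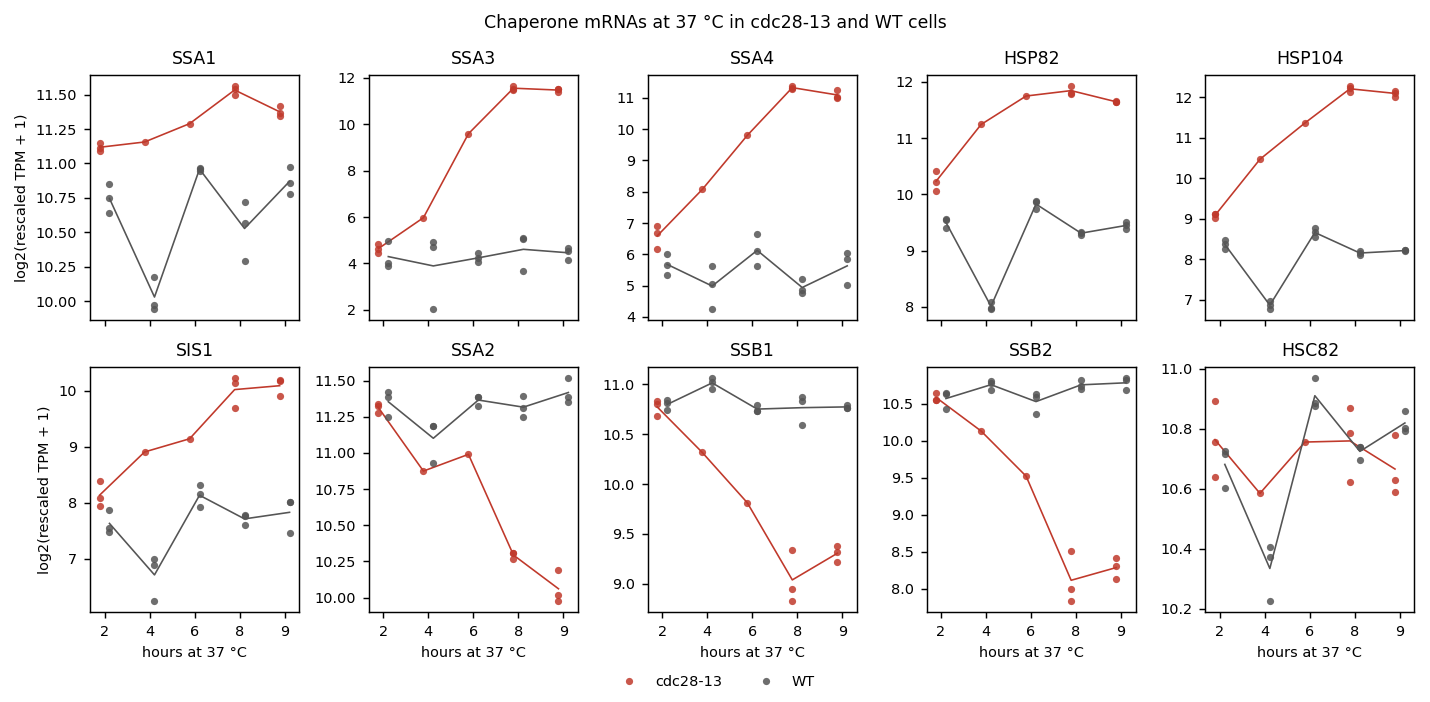
Each panel plots 1 chaperone gene in the G1 experiment, with log2(rescaled TPM + 1) on the vertical axis and hours at 37 °C on the horizontal axis, cdc28-13 left and WT right. Points are libraries (3 per group, 1 for cdc28-13 at 4 h and at 6 h) and lines join group means. SSA3, SSA4 and HSP104 lie far above WT at 8 and 9 h in cdc28-13, SSA2, SSB1 and SSB2 lie below it, and HSC82 is close to WT.

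HSP104, the disaggregase, had the smallest adjusted p of the 10 genes at 9 h. It had 552, 558 and 514 TPM in cdc28-13 at 2 h, then 1419 TPM at 4 h and 2645 TPM at 6 h, and in the late arrest 4791, 5009 and 4467 TPM at 8 h and 4429.8, 4150.4 and 4598 TPM at 9 h. In WT it had 353, 307 and 331 TPM at 2 h and 298, 292 and 299 at 9 h, with a dip to 124, 109 and 115 at 4 h. Every cdc28-13 library was above every WT library of its time. The difference was 0.71 (SE 0.0866, adjusted p = 6.97e-05) at 2 h and 3.88 (SE 0.0866, adjusted p = 1.08e-16), or 14.8-fold, at 9 h.

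The inducible Hsp70 genes started lower and moved further. SSA3, expressed mainly in stationary or stressed cells, had 27.9, 21 and 23.5 TPM in cdc28-13 at 2 h, 772 at 6 h and 2949, 2659 and 2941 at 9 h, against 16.8, 22.5 and 24.6 TPM in WT at 9 h. SSA4, the classic heat-inducible form, had 119.9, 71.0 and 101 TPM in cdc28-13 at 2 h, 889 at 6 h and 2034, 2085 and 2432 at 9 h, against 64.4, 31.2 and 56.8 TPM in WT at 9 h. In every cdc28-13 library at 8 and 9 h they had at least 2659 (SSA3) and 2034 TPM (SSA4), and in every WT library at most 33.2 (SSA3) and 99.4 TPM (SSA4). The 9 h difference was 7.01 (SE 0.534, adjusted p = 2.53e-09) for SSA3, a 129-fold change, and 5.46 (SE 0.327, adjusted p = 8.36e-11) for SSA4, a 43.9-fold change. As deposited, before rescaling, SSA3 at 9 h had only 0.52, 0.7 and 0.78 TPM in WT and 45.63, 38.65 and 45.03 in cdc28-13. SSA4 had 2.0, 0.97 and 1.8 TPM in WT on that scale. The size of both fold changes is therefore uncertain. At 2 h neither was called (adjusted p = 0.972 for SSA3 and 0.299 for SSA4).

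HSP82, the inducible Hsp90, had 3177, 3184 and 3250.2 TPM in cdc28-13 and 665, 697 and 729 TPM in WT at 9 h, a difference of 2.20 (SE 0.0861, adjusted p = 3.79e-13). Its partner HSC82 had 1539, 1757 and 1582 TPM in cdc28-13 and 1786, 1774 and 1857 TPM in WT, a difference of -0.15 (SE 0.0858, adjusted p = 0.178), which was not called. HSP82 thus supplied 66.4 ± 1.66% of Hsp90 mRNA in cdc28-13 and 27.8 ± 0.618% in WT (SD, n = 3 each), and the Hsp90 sum differed by 0.95 (SE 0.075, adjusted p = 4.47e-09), but by -0.10 on the deposited scale. SIS1, which feeds clients to Hsp70 and Hsp104, had 1174, 1157 and 957 TPM in cdc28-13 and 176, 258 and 256 TPM in WT, a difference of 2.26 (SE 0.206, adjusted p = 3.21e-08).

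On the growth side, SSA2 had 1166, 1038 and 1005 TPM in cdc28-13 and 2929, 2672 and 2613 TPM in WT at 9 h, a difference of -1.36 (SE 0.0847, adjusted p = 1.55e-10). The ribosome-associated SSB2 had 342, 280.0 and 315 TPM in cdc28-13 and 1645, 1809 and 1840.5 TPM in WT, a difference of -2.50 (SE 0.133, adjusted p = 1.78e-11). SSB1 differed by -1.47 (SE 0.107, adjusted p = 1.35e-09), and made up 67.0% of the SSB sum in cdc28-13 and 49.8% in WT. The SSB sum fell, with a difference of -1.89 (SE 0.0788, adjusted p = 7.24e-13).

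The makeup of the SSA mRNA, which does not depend on the total chosen for scaling, differed between the strains at 9 h. SSA3 supplied 32.5% of the summed SSA1 to SSA4 TPM (the SSA sum) in cdc28-13 and 0.456% in WT, SSA4 24.9% in cdc28-13 and 1.08% in WT, and SSA2 12.2% in cdc28-13 and 58.4% in WT. SSA1 had 2728, 2635 and 2603 TPM in cdc28-13 and 1753, 1854 and 2014 TPM in WT, a difference of 0.50 (SE 0.0963, adjusted p = 0.000326), but -0.29 with all ORFs in the total and -0.53 on the deposited scale. The SSA1 and SSA2 sum differed by -0.31 (SE 0.0622, adjusted p = 0.000549).

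Most of these genes were not called early in the arrest. At 2 h only HSP82 (difference 0.73, SE 0.0861, adjusted p = 5.97e-05) and HSP104 were called among the 10, beside 0.527% of all genes higher and 0.623% lower. At an unadjusted p under 0.05 by limma there were 5 of the 10 genes, and 567 of all 6263. The median difference at 2 h was already 0.61 for the 6 inducible genes. It was -0.0054 for the 4 growth-linked genes and 0.0058 for all genes. At 8 h, beside 17.5% higher and 21.7% lower, the same 9 genes were called as at 9 h, with SSA3 at 6.95, SSA4 at 6.38 and HSP104 at 4.06. SSA1 lost its 8 h call with all ORFs in the total (adjusted p = 0.822). The change of the strain difference between 2 and 9 h was itself called for 8 members (background 10.2% higher and 11.6% lower), SSA1 and HSC82 being the exceptions. In cycling WT cells no member was called between 9 h and 2 h by limma, where 0.0479% of all genes were higher and 0.128% lower (11 genes, with 287 genes and none of the 10 at an unadjusted p under 0.05). The WT differences of the 10 lay between -0.15 and 0.21, although HSP82 passed through 269, 253 and 249 TPM at 4 h and 939, 858 and 926 at 6 h.

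The stationary phase course asked which changes accompany the end of growth in cells without a cdc mutation. In the haploid, all 6 inducible members were higher and all 4 growth-linked members lower at 24 h than at 2 h, against a background of 12.4% of genes higher and 10.3% lower. SSA3 had 2499 and 2558 TPM at 24 h and 5.00 and 15 at 2 h, a difference of 8.00 (SE 0.976, adjusted p = 3.1e-05). Its 2 h values were only 0.24 and 0.73 TPM as deposited, so the size of this difference is uncertain. HSP104 had 1663 and 1636 TPM at 24 h and 163 and 238 at 2 h (3.06, SE 0.204, adjusted p = 8.14e-08). SSB1 had 161 and 202 TPM at 24 h and 2811 and 3178 at 2 h, a difference of -4.04 (SE 0.206, adjusted p = 5.59e-09). The medians were 3.19 for the inducible and -2.78 for the growth-linked genes, and 0.32 for all genes.

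The haploid Hsp70 genes changed at different times. At 10 h SSA1 had 4608 and 4611 TPM against 345 and 494 TPM at 2 h, a difference of 3.48 (SE 0.304, adjusted p = 5.51e-06), and held 63.5% of the SSA sum. SSA4 had 420.4 and 318 TPM at 10 h against 15 and 25.7 TPM at 2 h (4.14, SE 0.547, adjusted p = 0.000194). SSA3 still had only 14.4 and 11.9 TPM at 10 h (0.6 and 0.51 as deposited) and was not called (adjusted p = 0.846). Its difference between 24 and 10 h was 7.48 (SE 0.976, adjusted p = 9.87e-05). By 24 h SSA3 made up 46.2% of the SSA sum and SSA2 7.22%, where SSA2 had held 87.5% at 2 h. From 2 to 10 h 5 members were called higher and 2 lower, beside 6.46% and 4.80% of all genes (paired percentages of genes are given as higher, then lower). The call of SIS1 (0.94, adjusted p = 0.031) was lost without any of the 4 libraries (adjusted p from 0.0992 to 0.140). Between 24 and 10 h 1 member rose and 5 fell, beside 5.01% and 7.87% of genes. The fall of SSA1 among them (-1.03, adjusted p = 0.0381) was also lost without any of the 4 libraries compared (adjusted p from 0.0968 to 0.159).

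The makeup of Hsp90 mRNA changed in the same course. HSP82 had 1238 and 1173 TPM at 10 h and 87.4 and 83.6 at 2 h (3.80, SE 0.186, adjusted p = 6.7e-08), and its share of Hsp90 mRNA was 5.89% at 2 h, 46.0% at 10 h and 56.3% at 24 h. HSC82 had 1420.2 and 1408 TPM at 10 h, close to 1357 and 1374 TPM at 2 h, and 609 and 731 TPM at 24 h, a difference from 2 h of -1.03 (SE 0.119, adjusted p = 1.79e-05). The Hsp90 sum at 24 h did not differ beyond its error from that at 2 h (0.08, SE 0.0999, adjusted p = 0.641), and it turned negative under each of the 3 other scalings.

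In the diploid-labelled culture all 10 members were called at 10 h against 2 h, 6 higher and 4 lower, beside 13.5% and 15.1% of genes. SSB2 had 154 and 109 TPM at 10 h and 2159 and 1968 at 2 h, a difference of -3.98 (SE 0.159, adjusted p = 4.3e-10). HSP104 had 3466 and 3508 TPM at 10 h and 359 and 429 at 2 h (3.15, SE 0.204, adjusted p = 3.29e-08). SSA3 had 313 and 483 TPM at 10 h and 0 and 14.7 at 2 h, where the value of 0 means that its fitted difference of 6.62 depends on the pseudocount.

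At 24 h 5 members were higher and 4 lower than at 2 h in the diploid-labelled culture (background 11.2% and 9.50%), with SIS1 not called. The direction between 24 and 10 h differed by gene: SSB2 had 532 and 572 TPM at 24 h against 154 and 109 TPM at 10 h and was called higher (2.08, SE 0.159, adjusted p = 7.06e-07). HSP104 had 1416 and 1463 TPM at 24 h and was called lower (-1.28, SE 0.204, adjusted p = 0.00064). In all 1 member rose and 4 fell, beside 9.56% and 4.57% of genes. The falls of SSA1 and SSA4 there were lost without any of the 4 libraries compared (adjusted p from 0.0828 to 0.190), leaving 3 called, or 4 without diploid-labelled 24 h replicate 1. The change between 2 and 24 h was called different between the strains for HSP82 alone (-1.57, SE 0.264, adjusted p = 0.0181), beside 0.181% and 0.0986% of genes, and that call was lost without haploid 2 h replicate 2 (adjusted p = 0.0533), without diploid-labelled 2 h replicate 2 (0.0566), with all ORFs in the total (0.0516) and on the deposited scale (0.0515).

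**Figure D2:**
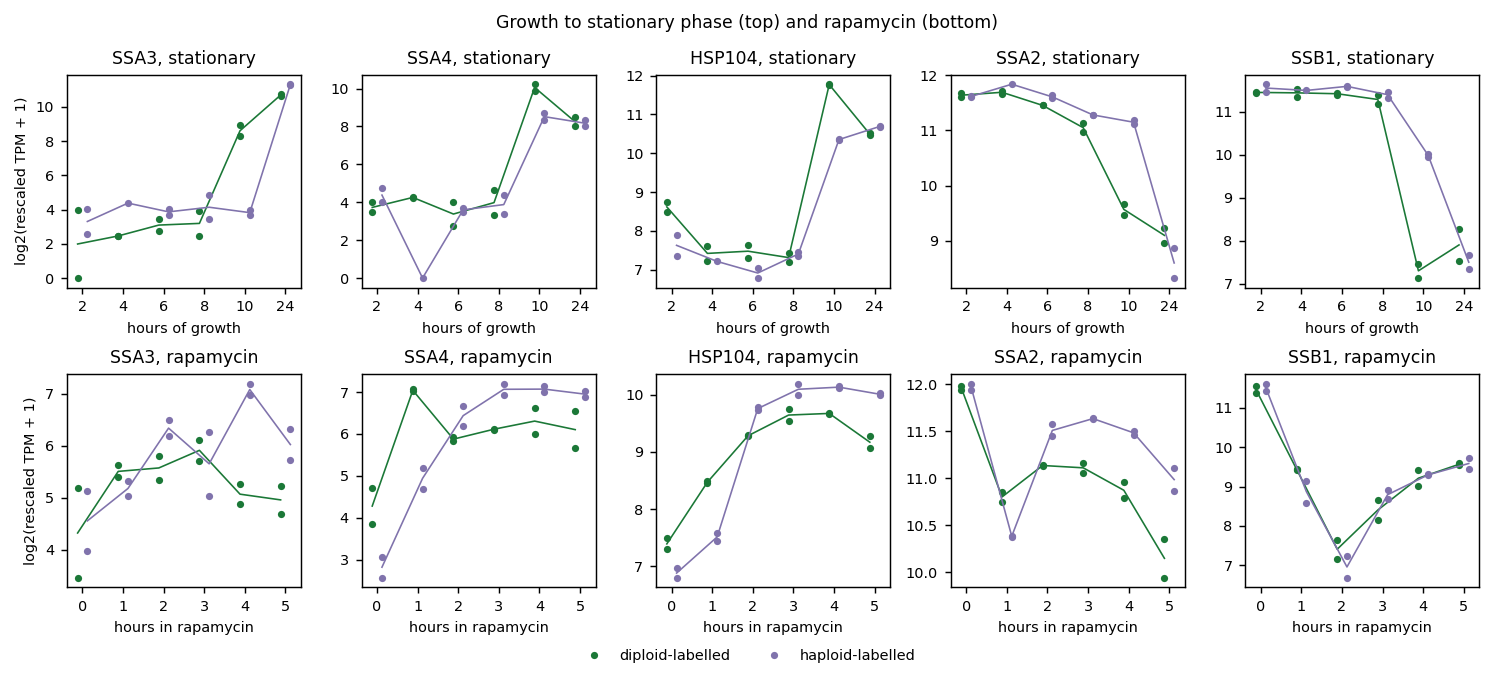
Log2(rescaled TPM + 1) of SSA3, SSA4, HSP104, SSA2 and SSB1 is plotted against hours of growth to stationary phase (top) and hours in rapamycin (bottom), the diploid-labelled strain left and the haploid right. Points are libraries and lines join means. SSA3 ends high in stationary phase and stays low in rapamycin, while SSB1 falls in both.

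Rapamycin, an inhibitor of TORC1, asked what follows when the growth signal is cut in cells with nutrients present. In the haploid all 4 growth-linked members were lower at 1 h than at 0 h, and SSA1, SSA4 and HSP104 were higher, beside 23.8% of genes higher and 7.72% lower. SSB1 had 568 and 385 TPM at 1 h and 2749 and 3126 at 0 h (-2.65, SE 0.241, adjusted p = 6.46e-07), and its lowest values were 149 and 101 TPM at 2 h. SSB2 had 472 and 436 TPM at 1 h and 2085 and 1936 at 0 h. SSA2 had 1339.7 and 1329.6 TPM at 1 h and 3909.8 and 4096 at 0 h (-1.58, SE 0.117, adjusted p = 6.38e-08). The 4 growth-linked genes did not stay together. At 2 h, when SSB1 and SSB2 were at their lowest, SSA2 had 2785 and 3042 TPM. HSC82 then had 2011 and 1880 TPM, against 1847 and 1764 at 0 h. The median gene moved by 0.63 between 0 and 1 h, so that after centring on it SSA1 stood at -0.21 and HSP82 at -0.56. After centring 52.9% of all calls were higher where it had been 75.5%. The SSA1 call (0.40, adjusted p = 0.0196) was lost without 0 h replicate 2 (0.204) or 1 h replicate 1 (0.120), and that of HSC82 without 1 h replicate 2 (0.0673).

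HSP104 had 110.2 and 124 TPM at 0 h in the haploid, 173 and 191 TPM after 1 h, 1105 and 1137 TPM after 4 h and 1043 and 1015 TPM after 5 h, a difference of 3.13 (SE 0.120, adjusted p = 2.63e-11) between 5 and 0 h. SSA1 peaked at 3 h with 3329.6 and 3411 TPM, against 540.5 and 439.7 TPM at 0 h. HSP82 had 562 and 635 TPM at 5 h and 252 and 283 at 0 h (1.16, SE 0.149, adjusted p = 2.39e-05). SSA3 reached 125 and 145 TPM at 4 h and was not called at 5 h (1.47, SE 0.559, adjusted p = 0.0674), except without 0 h replicate 1, where its adjusted p was 0.0383. At 5 h 4 inducible members were higher and 4 growth-linked members lower than at 0 h (background 22.5% and 3.85%). Against 1 h, 5 members were higher and none lower at 5 h (background 4.87% and 2.33%), SSA2 among them (0.60, SE 0.117, adjusted p = 0.0044), a call that was lost without 5 h replicate 1 (0.0687).

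In the diploid-labelled strain 3 members were higher and 3 lower at 1 h than at 0 h (background 18.8% and 7.56%), and 3 higher and 4 lower at 5 h (background 19.7% and 4.06%). SSA1, SSA4 and HSP104 were the 3 higher at both times. At 1 h SIS1 was also called, lower, without 0 h replicate 1 (0.0366), SSA3 higher without 0 h replicate 2 (0.0218) and HSP82 higher without 1 h replicate 2 (0.0344). Between 5 and 1 h HSP104 was higher and SSA2 and HSC82 lower (background 6.67% and 3.89%). HSP104 had 617 and 535 TPM at 5 h and 156 and 178 at 0 h, a difference of 1.78 (SE 0.120, adjusted p = 3.25e-08). The 5 h change of HSP104 in the diploid-labelled strain minus that in the haploid was -1.35 (SE 0.170, adjusted p = 0.000652), with 0.162% and 0.777% of genes called in that test. SSA2 was the other member called there (-0.83, SE 0.165, adjusted p = 0.0244), a call that was lost without haploid 0 h replicate 1, diploid-labelled 0 h replicate 2, haploid 5 h replicate 1 or diploid-labelled 5 h replicate 1 (adjusted p from 0.0506 to 0.108). SSA4 joined them when haploid 0 h replicate 2, diploid-labelled 0 h replicate 1 or diploid-labelled 5 h replicate 2 was left out (adjusted p from 0.0192 to 0.0311). For all of these differences strain and dose cannot be told apart. The 10 genes together held 0.693% (diploid-labelled) and 0.499% (haploid) of the rescaled signal at 1 h, and 1.2% at 0 h in both strains.

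The other arrests were read in single libraries, which allow no test, so a 2-fold difference was used to describe them. In the metaphase arrest at 9 h SSA3 had 540.0 TPM in cdc20-1 and 25.5 in WT, and SSA4 had 775 TPM in cdc20-1 and 41.0 in WT. HSP82 had 2540.1 TPM in cdc20-1 and 453 in WT, and was already 1533 TPM in cdc20-1 against 260.0 TPM in WT at 2 h. Past 2-fold at 9 h, 4 members were higher and 3 (SSA2, SSB1 and SSB2) lower, where 30.6% of all genes were higher and 6.48% lower.

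In the anaphase arrest at 9 h HSP104 had 569 TPM in cdc15-2 and 196 in WT, and SSA3 had 126 TPM in cdc15-2 and 22.9 in WT. SSA2 had 426 TPM in cdc15-2 and 2208 in WT, and HSC82 had 485 TPM in cdc15-2 and 1473 in WT. SSA1 was lower in cdc15-2, at 766 TPM against 1291 TPM in WT. In all 3 members were higher and 4 lower past 2-fold, beside 31.8% and 6.27% of genes. ORFs in the ribosomal DNA, left out of the rescaled totals, held up to 21% of the deposited signal in this experiment's cdc15-2 libraries.

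Alpha factor holds cells in G1 by the mating pathway, at 30 °C and with functional Cdc28. Before treatment all 10 differences between the alpha factor and DMSO cultures were within 0.21. At 9 h HSP104 had 625 TPM with alpha factor and 151 with DMSO, SSA4 had 83.4 TPM with alpha factor and 23 with DMSO, and SSA1 had 1292 TPM with alpha factor and 561 with DMSO. In all 5 members were past 2-fold higher and none lower, beside 24.4% and 5.10% of genes. Between the prototrophic and auxotrophic cdc28-13 strains at 8 h no member passed 2-fold in either direction (2.27% and 11.7% of genes did). SSA3 had 698 TPM in prototrophic cells against 442 TPM in auxotrophic cells, and HSP104 had 737 TPM in prototrophic cells against 1251 TPM in auxotrophic cells.

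**Figure D3:**
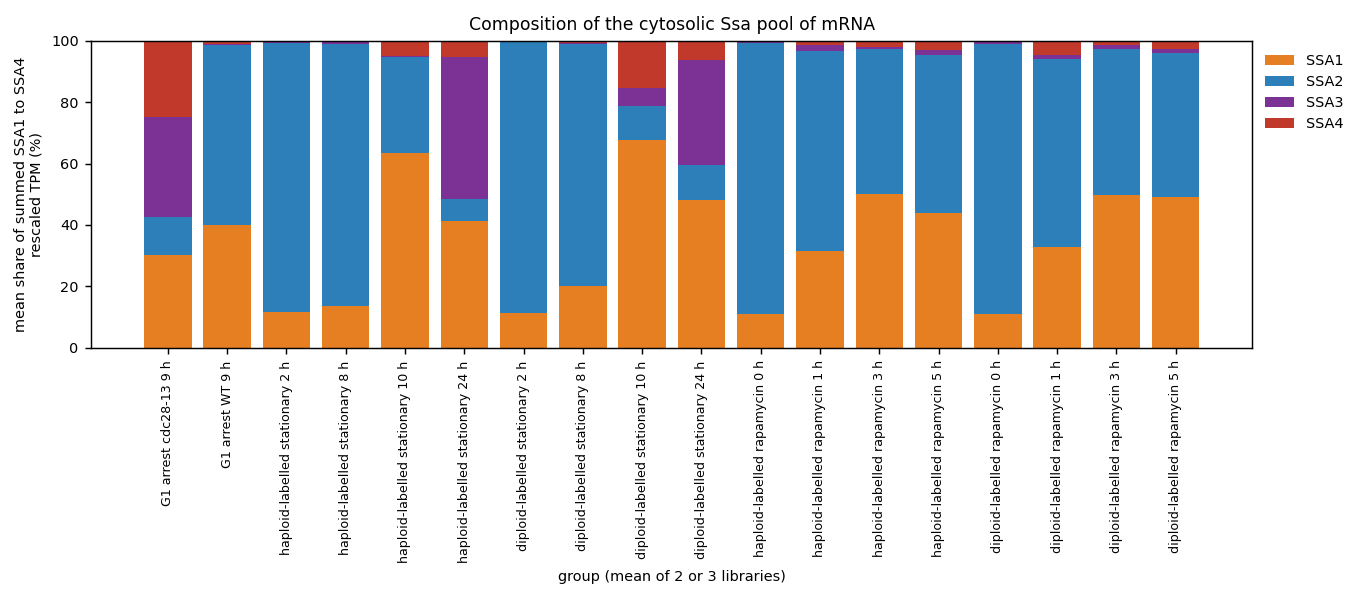
Stacked bars give the mean percent of the summed SSA1 to SSA4 TPM held by each gene in 18 groups, with cdc28-13 left of WT at 9 h and the time courses in order of time. SSA2 is the main form at 2 h of growth and at 0 h of rapamycin, and SSA3 reaches 32.5% in cdc28-13 at 9 h and 46.2% in the haploid at 24 h.

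The AID-BCY1 experiment asked how much of the arrest response remains when PKA cannot be switched off. Bcy1 holds PKA inactive when cAMP is low, so its loss leaves the kinase active. Libraries at 4 and 6 h, after auxin, were pooled (4 per strain, from a pair of sample series, numbered replicate 1 and replicate 2 here, that entered the model as a covariate). The 4 and 6 h libraries of a strain within a series may come from the same culture. The model counts them as independent, so the SE and adjusted p of tests on the pooled libraries may be too small. SSA2 and HSC82 were higher in AID-BCY1 cells than in parents in all 4 backgrounds, and HSP104 was lower in the 3 arrested ones. The 6 inducible genes did not move as a group, with medians of 0.18 in WT, -0.55 in cdc28-13, -0.12 in cdc20-1 and 0.23 in cdc15-2. HSP104 was the only inducible gene called lower in cdc20-1 and in cdc15-2. Growth-linked medians were 0.41, 0.69, 0.72 and 0.75 in the same order.

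SSA2 gave the largest change in each arrest. In cdc28-13 it had 1799 and 1604 TPM in AID-BCY1 cells at 6 h and 408 and 518 TPM in parents. In cdc20-1 it had 1797 and 1819 TPM in AID-BCY1 cells and 570.0 and 570.1 in parents, and in cdc15-2 2032 and 2144 TPM in AID-BCY1 cells and 570.5 and 623 in parents. In WT it had 3066 and 2466 TPM in AID-BCY1 cells and 1644 and 1304 in parents. At 6 h the AID-BCY1 libraries of the arrested strains overlapped with or lay above the WT parent libraries. Differences over 4 and 6 h were 1.62 (SE 0.126, adjusted p = 4.11e-11) in cdc28-13, 1.54 in cdc20-1, 1.62 in cdc15-2 and 0.83 in WT. The excess over WT was called in cdc28-13 (0.79, SE 0.178, adjusted p = 0.00766), in cdc15-2 (0.80, SE 0.178, adjusted p = 0.00427) and in cdc20-1 (0.71, SE 0.178, adjusted p = 0.0111), the last one not without cdc20-1 AID-BCY1 4 h replicate 1 (adjusted p = 0.0536). These 3 tests share the WT libraries. Before auxin, at 2 h, SSA2 had 1829.8 and 2059 TPM in cdc28-13 AID-BCY1 cells and 1509.6 and 1286 in parents (0.48, SE 0.178, adjusted p = 0.646), and 1396 and 1504 TPM in cdc15-2 AID-BCY1 cells and 1046 and 983 in parents (0.51, SE 0.178, adjusted p = 0.361). Neither difference was called, but the libraries of AID-BCY1 cells and parents did not overlap in either strain.

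HSC82 had 1422 and 1359 TPM in cdc28-13 AID-BCY1 cells and 642 and 725 in cdc28-13 parents at 6 h (0.90, SE 0.129, adjusted p = 2.07e-06 over both times). The Hsp90 sum was called higher in AID-BCY1 cells of all 4 backgrounds, by 0.54 in WT, 0.65 in cdc28-13, 0.50 in cdc20-1 and 0.91 in cdc15-2, as was the SSA1 and SSA2 sum. The SSB sum was called higher in the 3 arrested strains by 0.47, 0.41 and 0.41 (cdc28-13, cdc20-1 and cdc15-2) and not in WT (adjusted p = 0.16).

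HSP104 had 316 and 227 TPM in cdc28-13 AID-BCY1 cells and 569 and 612 TPM in cdc28-13 parents at 6 h. WT cells had 198 and 196 TPM with AID-BCY1 and 177 and 138 in parents. The difference was -1.26 (SE 0.188, adjusted p = 4.18e-06) in cdc28-13, -0.89 (SE 0.188, adjusted p = 0.000304) in cdc15-2 and -0.68 (SE 0.188, adjusted p = 0.00544) in cdc20-1, the last one lost without cdc20-1 parent 4 h replicate 2 (adjusted p = 0.0667). It was -0.14 (SE 0.188, adjusted p = 0.628) in WT. SSA4 was called lower in cdc28-13 (-0.95, SE 0.187, adjusted p = 0.000172), with 48.8 and 37.4 TPM in AID-BCY1 cells and 75.1 and 91.7 in parents at 6 h. The cdc28-13 effect differed from that in WT by -1.12 for HSP104 (adjusted p = 0.0111) and -1.13 for SSA4 (0.0104), both lost without WT AID-BCY1 4 h replicate 1 (0.0561 and 0.0523). For HSP104 in cdc15-2 the difference from WT was not called, but it was without cdc15-2 parent 4 h replicate 1 or WT AID-BCY1 4 h replicate 2 (0.0201 and 0.0224).

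By counts, AID-BCY1 cells had 3 members higher and none lower in WT (background 9.37% higher and 15.0% lower). In cdc28-13 4 were higher and 3 lower (9.47% and 25.0%), in cdc20-1 4 higher and 1 lower (12.1% and 22.3%), and in cdc15-2 5 higher and 1 lower (11.6% and 27.4%). Libraries of AID-BCY1 cells and parents overlapped for 1 of the called members in WT, cdc28-13 and cdc20-1 each and for 2 in cdc15-2. Overlap was not counted over all genes, so it cannot show anything particular to these members. HSP82 (0.64, SE 0.239, adjusted p = 0.0352 in cdc15-2) and SIS1 (in WT and cdc20-1) were the least secure of these, each lost without any of several libraries (adjusted p from 0.0533 to 0.207), and SSA1 in cdc28-13 (-0.57) was lost without replicate 2 of either strain at 6 h (0.0552 without AID-BCY1 and 0.0602 without parent replicate 2). Leaving out 1 library added calls as well: SSA3 lower in cdc28-13 without AID-BCY1 replicate 1 at 4 or 6 h (0.0452 and 0.0261), SSB1 higher in cdc20-1 without AID-BCY1 6 h replicate 1 or parent 6 h replicate 2 (0.0398 and 0.0418), SSA3 and SSA4 lower in cdc20-1 without AID-BCY1 6 h replicate 2 (0.0387 and 0.0476), and SIS1 higher in cdc15-2 without AID-BCY1 4 h replicate 2 (0.0323). The effect differed from WT for 3 members in cdc28-13 (background 1.30% and 4.07%) and 1 each in cdc20-1 (3.82% and 5.00%) and cdc15-2 (1.91% and 7.95%), where HSC82 was added without WT parent 6 h replicate 2 (0.0407).

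Before auxin, at 2 h, limma called no member in WT (background 0% and 0.0494%, with 1 parent library, assumed to vary like the other groups), in cdc28-13 (0.0165% and 0.132%) or in cdc15-2 (0.494% and 0.461%). At an unadjusted p under 0.05 the number of members was 0 in WT, 1 in cdc28-13, 1 in cdc15-2 and 4 in cdc20-1. Of all 6074 genes, 262, 238, 307 and 991 passed that level in the same order. In cdc20-1, beside 1.19% and 1.42% of genes, SSA3 was higher in AID-BCY1 cells (1.12, SE 0.303, adjusted p = 0.0397), a call lost without cdc20-1 AID-BCY1 replicate 2 (0.495) or either parent library (0.281 and 0.110). Without cdc20-1 AID-BCY1 replicate 1, SSA4, SSB1 and SSB2 were called as well, and 742 genes in all instead of 158.

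**Figure D4:**
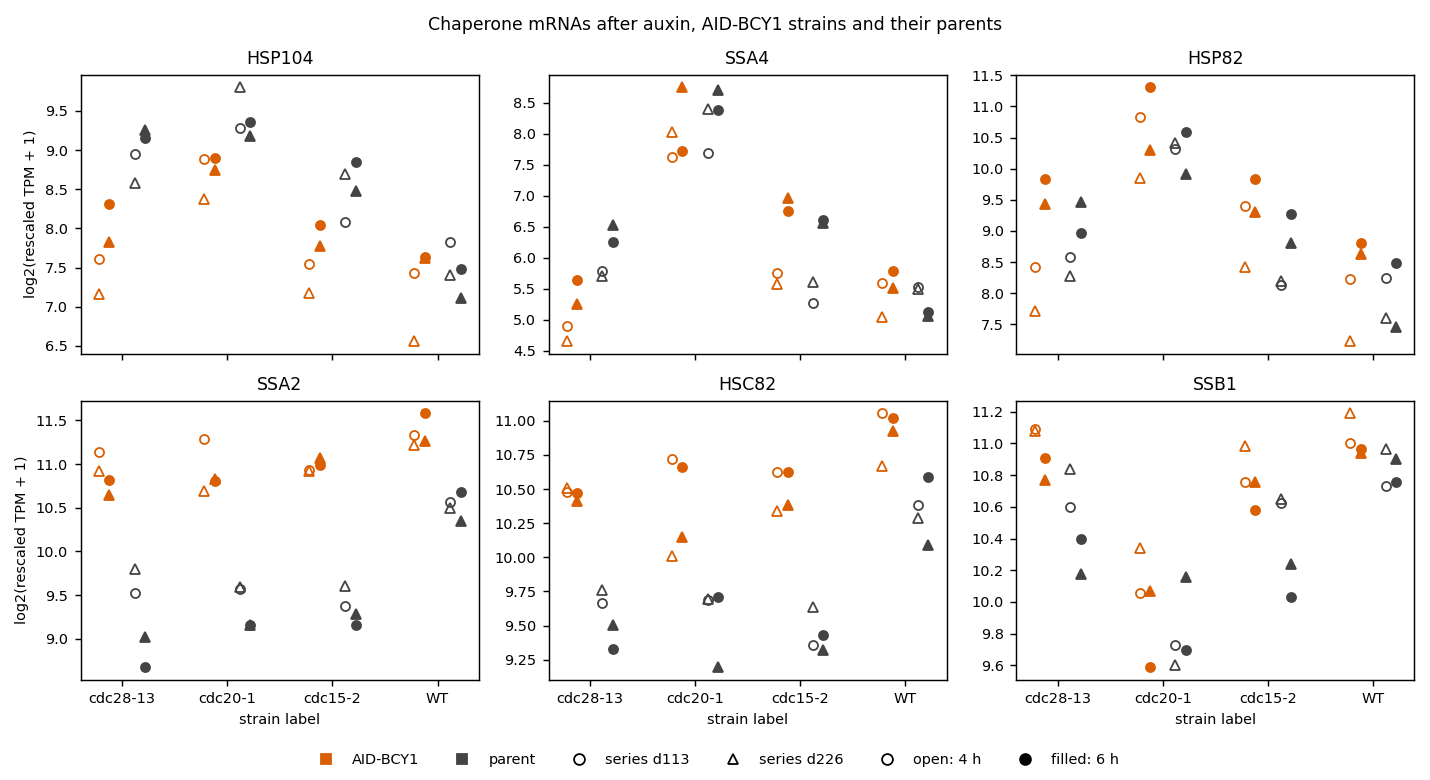
Log2(rescaled TPM + 1) of 6 members at 4 h (open) and 6 h (filled) is plotted for AID-BCY1 (orange, left) and parent (grey, right) libraries of each background, circles for replicate 1 and triangles for replicate 2. HSP104 lies lower and SSA2 and HSC82 higher with AID-BCY1 in the arrested strains.

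The same experiment gave replicated comparisons of the arrests with WT at 6 h, with 2 libraries per strain. Among parents all 10 members were called in cdc28-13, 5 higher and 5 lower (background 27.0% and 17.9%), and 9 in cdc20-1 (background 29.7% and 14.6%) and in cdc15-2 (30.1% and 7.89%), each 5 higher and 4 lower with SSA1 not called. The inducible SSA1 was among the lower in cdc28-13 (568 and 609 TPM, against 1226 and 748 in WT), unlike at 8 and 9 h of the G1 experiment. Levels in cdc28-13 at 6 h were also unlike those of the single G1 experiment library. HSP104 had 569 and 612 TPM here and 2645 there, and SSA3 59.7 and 51.7 here and 772 there. The reason was not tested. SSA4 differed from WT by 3.45 in cdc20-1, 1.49 in cdc15-2 and 1.30 in cdc28-13, and HSP82 by 2.29 in cdc20-1, 1.07 in cdc15-2 and 1.24 in cdc28-13. HSP104 differed by 1.91 (SE 0.266, adjusted p = 1.55e-06) in cdc28-13, 1.97 in cdc20-1 and 1.37 in cdc15-2. The 3 comparisons share the WT libraries. In cdc28-13 SSA1 was not called without replicate 1 of either strain, nor HSP82 and SIS1 without replicate 2 of either, nor SSB1 without cdc28-13 replicate 2, and the calls of HSP82 in cdc15-2 and SIS1 in cdc20-1 also rested on single libraries (adjusted p from 0.0508 to 0.294 over these).

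Among AID-BCY1 strains at 6 h, 4 members differed from WT AID-BCY1 cells in cdc28-13, 3 in cdc15-2 and 9 in cdc20-1. In cdc28-13 1 was higher and 3 lower (background 14.4% and 19.5%), with HSP104 at 0.44 (SE 0.266, adjusted p = 0.211). Of those 4, HSC82 and HSP82 were lost without any of the 4 libraries and SSA2 without WT AID-BCY1 replicate 1 (adjusted p from 0.0557 to 0.179), while SSA1 was called in each case (-1.34, SE 0.240, adjusted p = 9.46e-05). In cdc15-2 2 were higher and 1 lower (background 9.91% and 10.7%), SSA1 being lost without WT AID-BCY1 replicate 1 or 2 or cdc15-2 AID-BCY1 replicate 1 and SSA4 without WT AID-BCY1 replicate 2 (adjusted p from 0.0504 to 0.157). In cdc20-1 5 were higher and 4 lower (background 17.0% and 16.1%), SSA4 by 2.59 (SE 0.265, adjusted p = 2.04e-08) and HSP82 by 2.08 (SE 0.338, adjusted p = 2.31e-05). Of these, SSA2 and SIS1 were lost without replicate 1 of either strain and HSC82 without either WT AID-BCY1 library or cdc20-1 AID-BCY1 replicate 2 (adjusted p from 0.0514 to 0.225).

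**Figure D5:**
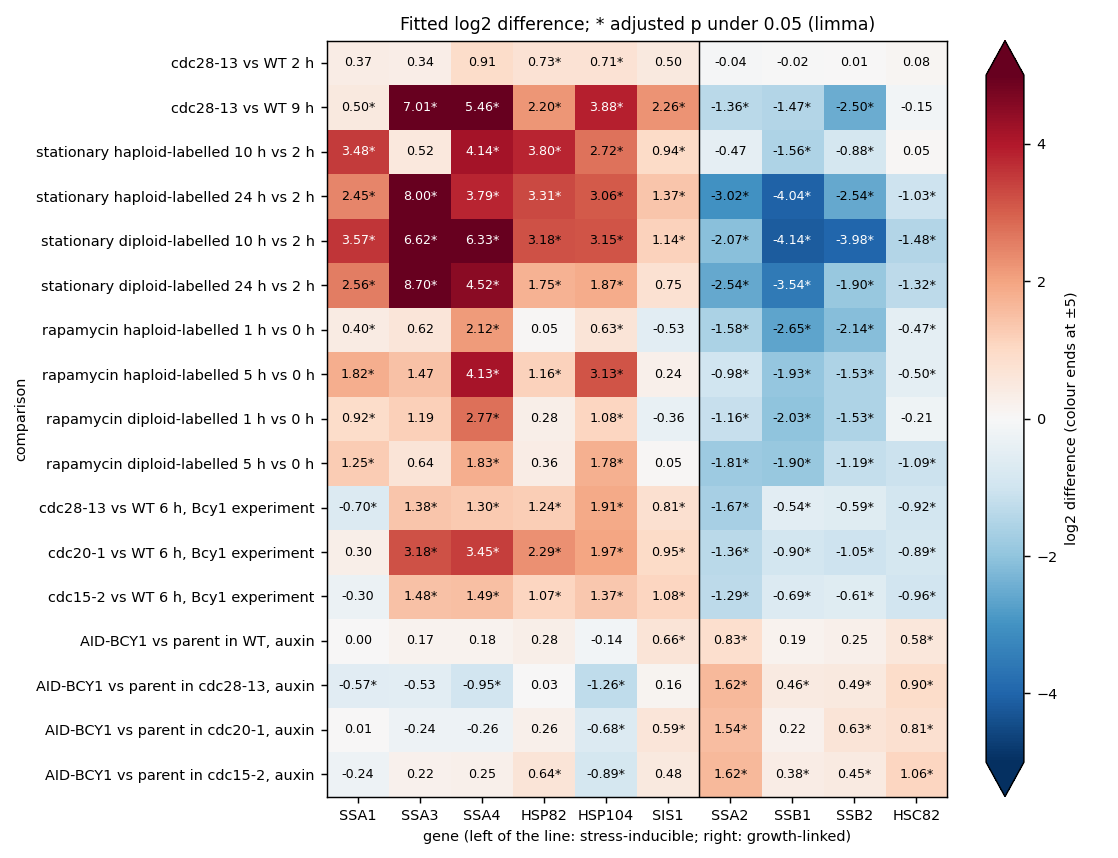
The colour of each cell gives the log2 difference of a member (columns) in 1 of 17 fitted comparisons (rows), with the scale ending at 5 in either direction and a star at an adjusted p under 0.05. SSA4 and HSP104 are positive in all 13 arrest, stationary phase and rapamycin comparisons. SSA2 and SSB2 are near 0 in cdc28-13 at 2 h and negative in the other 12, while in the comparisons of AID-BCY1 cells with parents SSA2 is positive in each.

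Partners of these chaperones were read from lists of known partners, first in cdc28-13 against WT at 9 h (background 17.1% higher and 19.1% lower). Among cytosolic co-chaperones of Hsp70, 4 of 11 were higher and 2 lower, with the Hsp110 nucleotide exchange factor SSE2 at 4.64 (SE 0.227, adjusted p = 5.64e-12) and the exchange factor SNL1 at -3.71. Among Hsp90 co-chaperones 3 of 11 were higher and 2 lower, with the peptidyl-prolyl isomerase CPR6 at 2.23 and CNS1 at -1.73. Of 5 partners of the Ssb proteins at the ribosome, none was higher and 4 lower (list median -2.42), with ZUO1, the J-domain protein of that complex, at -2.42 (SE 0.143, adjusted p = 6.81e-11) and EGD2, a subunit of the nascent chain associated complex, at -2.55. Of 10 organelle chaperones 4 were higher and 2 lower, with HSP78, the mitochondrial relative of Hsp104, at 3.21 and KAR2, the Hsp70 of the endoplasmic reticulum, at 1.98. All 3 transcription factors were called, 2 higher and 1 lower (list median 0.855). MSN4 was at 2.69 and MSN2 at -1.46, and HSF1 was the other higher one.

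In haploid stationary phase at 24 h against 2 h (background 12.4% and 10.3%), the Ssb partners again had none of 5 higher and 4 lower (median -2.01), with SSZ1, the atypical Hsp70 that pairs with Zuo1, at -2.48. Of the Hsp70 co-chaperones 2 of 10 were higher and 2 lower, with SSE2 at 7.74 and the main J-domain protein YDJ1 at -1.30, and of the Hsp90 co-chaperones STI1, which links Hsp70 to Hsp90, was the 1 of 11 called, at 1.17. Organelle chaperones had 2 of 10 higher and 1 lower, and HSF1 was the 1 of 3 regulators called, at 1.88. After 1 h of rapamycin in the haploid (background 23.8% and 7.72%) SSE2 was at 3.66, YDJ1 at -1.87 and HSP78 at 3.28, and all 3 regulators were higher, MSN4 at 2.47. At that time 1 of 11 Hsp70 co-chaperones was higher and 2 lower, 2 of 11 Hsp90 co-chaperones higher and 2 lower, 3 of 5 Ssb partners lower and 1 of 10 organelle chaperones higher. With AID-BCY1 in WT after auxin (background 9.37% and 15.0%) the signs were turned for SSE2 (-0.71) and HSP78 (-0.89), 5 of 11 Hsp90 co-chaperones were higher and none lower, CPR6 at 0.80, and none of the 5 Ssb partners was called. There 2 Hsp70 co-chaperones were higher and 3 lower, 1 organelle chaperone was higher and 4 lower, and 1 regulator, MSN4, was lower.

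Across all libraries, after centring within each experiment, pairs of members ranged widely in how far they varied together. Pearson's r was 0.897 between SSA4 and HSP104, 0.928 between SSB1 and SSB2, 0.872 between SSA2 and HSC82, -0.285 between SSA1 and SSA2 and -0.821 between SSA4 and SSB2. Within the growth-linked group it was as low as 0.424 (SSB2 and HSC82), and within the inducible group as low as 0.496 (SSA1 and SSA3). With the other members left out, the 5 genes most like SSA4 among 5644 were HSP42 (0.887), SSE2 (0.862), GRE3 (0.858), HSP78 (0.853) and SDS24 (0.852), and those most like SSB1 were YEF3 (0.941), RPL3 (0.939), RPS0B (0.930), RPS4B (0.926) and RPL2B (0.924). YEF3 is a translation elongation factor and the RPL and RPS genes code for ribosomal proteins. Libraries of 1 culture and paralogs that share reads are not independent points, so these values are descriptions.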

How the data were processed

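RNA from 8 experiments was sequenced, as total RNA in 132 libraries and polyA RNA in 27 per the labels. The study's methods instead describe mRNA enrichment for all but the G1 arrest, stationary phase and rapamycin sets, so the alpha factor and AID-BCY1 libraries are total RNA by label and enriched by those methods. In the deposited values, non-rDNA ORFs held 73.9 to 88.1% of alpha factor and 66.1 to 96.0% of AID-BCY1 libraries. The submitters' processing notes name STAR 2.5.3a and RSEM 1.3.0. The authors deposited log2(TPM + 1) values in 1 table of 7130 features, with no read counts, so depth and counting error are unknown. The build is sacCer3. Names came from the files and the RefSeq table (6006 of 6685 ORF IDs matched), and every column of the table was used.

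Deposited values were turned back to TPM and rescaled over 6678 nuclear ORFs, since ORFs in the ribosomal DNA and rRNA took a share that differed between libraries. Genes with a mean log2 value of at least 1 within an experiment were tested with limma 3.58.1 (R 4.3.3, trend, two-sided, Benjamini-Hochberg) on log2(TPM + 1) over all groups of that experiment (6263 genes in G1 arrest, 6087 in stationary phase, 6176 in rapamycin and 6074 with AID-BCY1), with the sample series as a covariate in the AID-BCY1 experiment. Groups came from the labels. The model was tested on simulated data. Alternatives were other totals, centring, pseudocounts, filters, a replicate block, fits of the compared groups only and leaving out each library. Python 3.11.15 with pandas 2.3.3 and matplotlib 3.10.9 was used.

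The members and partner lists were chosen with earlier results of these data known. Named genes were the 10 members, the called partners with the largest differences in each list and the 5 genes most correlated with SSA4 and SSB1. Spike-in rows (4, in 3 experiments) were not used, because the amounts added per cell are not given in the sources used here.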

Additional observations from a re-analysis of the deposited data

Results flagged for a closer look

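Each value here is a log2 difference that differed between groups by a limma test of the difference itself (adjusted p under 0.05). The strain difference cdc28-13 minus WT changed between 2 and 9 h by 6.67 for SSA3, 4.55 for SSA4, 3.17 for HSP104, 1.76 for SIS1 and 1.47 for HSP82, and by -2.51 for SSB2, -1.44 for SSB1 and -1.32 for SSA2. The 24 h against 2 h change in stationary phase differed between the diploid-labelled and the haploid strain by -1.57 for HSP82. The 5 h change in rapamycin differed between the same strains by -1.35 for HSP104 and -0.83 for SSA2, where strain and dose cannot be told apart. The effect of AID-BCY1 after auxin differed between cdc28-13 and WT by 0.79 for SSA2, -1.13 for SSA4 and -1.12 for HSP104, between cdc20-1 and WT by 0.71 for SSA2, and between cdc15-2 and WT by 0.80 for SSA2.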

How the results depend on the processing

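Under the alternatives, 493 counts of called members stayed within 1.5 times the reported count and 36 moved, while 5877 single values kept direction and side of the threshold, 169 lost a call, 73 gained one, 12 moved and 20 turned round. With all ORFs in the total, these values turned: HSC82 at 8 h of the G1 arrest (-0.94), SSA1 at 9 h (-0.29), the 9 h minus 2 h change of SSA1 (-0.53) and of the Hsp90 sum (-0.029), the SSA1 and SSA2 sum at 8 h (-0.91), and the Hsp90 sum in haploid 24 h (-0.32) and diploid-labelled 10 h (-0.028) stationary phase against 2 h. On the deposited scale SSA1 at 8 h (-0.10) and 9 h (-0.53), HSC82 at 8 h (-1.05), the change of SSA1 (-0.83) and of the Hsp90 sum (-0.34), the SSA1 and SSA2 sum at 8 h (-1.03), the Hsp90 sum at 9 h (-0.10), in haploid 24 h (-0.48) and diploid-labelled 10 h (-0.24) stationary phase and the SSA1 and SSA2 sum in the last of these (-0.033) turned. Centring on the median turned the Hsp90 sum in haploid 24 h stationary phase (-0.36) and, in haploid 1 h rapamycin, SSA1 (-0.21) and HSP82 (-0.56). The cause was not tested beyond the change of total itself.

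Counts of called members moved as follows. The strain difference in stationary phase had 0 instead of 1 with all ORFs, on the deposited scale and with the compared groups only. With the compared groups only, which leaves fewer samples, rapamycin gave 4 instead of 7 (haploid 1 h against 0 h), 2 instead of 5 (haploid 5 h against 1 h), 0 instead of 3 (diploid-labelled 5 h against 1 h) and 0 instead of 2 (strain difference), and cdc15-2 against WT AID-BCY1 at 6 h gave 6 instead of 3. AID-BCY1 in cdc20-1 at 2 h had 0 instead of 1 on the deposited scale and with no filter, the effect in cdc28-13 minus WT 1 instead of 3 on the deposited scale, and the prototroph 1 instead of 0 after centring. Leaving out 1 library gave 0 to 1 (stationary strain difference), 3 to 4 (diploid-labelled 24 h against 10 h), 1 to 3 (rapamycin strain difference), 1 to 3, 0 to 1 and 1 to 2 (AID-BCY1 effect in cdc28-13, cdc20-1 and cdc15-2 minus WT), 1 to 2 and 1 to 3 (cdc28-13 and cdc15-2 against WT AID-BCY1 at 6 h) and 0 to 4 (AID-BCY1 in cdc20-1 at 2 h).

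Over all genes, the share of calls that were higher moved by over 10 percentage points in 58 of 108 pairs of comparison and scaling. It was 47.2% in cdc28-13 against WT at 9 h, 21.1% with all ORFs and 13.6% on the deposited scale, and 85.4% in haploid 5 h rapamycin against 0 h and 55.4% after centring. The number of genes called moved by over 1.5 times in 45 cases with 1 library left out and in 21 with the compared groups only. Examples are 612 instead of 1253 in cdc15-2 against WT AID-BCY1 cells without WT AID-BCY1 6 h replicate 2, 776 instead of 326 for the AID-BCY1 effect in cdc28-13 minus WT without WT 6 h replicate 2, and 251 instead of 860 in diploid-labelled 24 h against 10 h with the compared groups only. Replicate numbers did not pair the samples: same-numbered libraries had deviations correlated between -0.059 and 0.068. With a replicate block no count of called members moved by over 1.5 times in the G1, stationary and rapamycin experiments, and the Hsp90 sum in cdc28-13 against WT at 2 h (0.32, adjusted p = 0.0706 with the block) and SSA1 in diploid-labelled 24 h against 10 h were no longer called. Without the series covariate, which is also the replicate number given here to the AID-BCY1 libraries, cdc28-13 against WT AID-BCY1 at 6 h had 2 called instead of 4.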
